A study of Rattus norvegicus with 7 samples.

Results

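The genes of the Bcl2 family of apoptosis were compared in rat mesenchymal stem cells (rMSCs) on a culture plate and on polymer films. The members are the rows whose gene symbol is Bcl2, Bcl2l1, Mcl1, Bax, Bak1, Pmaip1, Bbc3, Bcl2l11, Bid or Bad, which gave 10 of the 17147 gene symbols in each table, and 9 of the 10 passed the filter on low values and were tested. The study seeded 20000 rMSCs on each surface and measured polyadenylated RNA after 4 h to ask how a strongly cell-adhesive film changes transcription. The surfaces were a tissue culture plate (TCP, 1 library), films of polycaprolactone (PCL, 3 libraries) and films of ISB-P, a polyurethane copolymer of polycaprolactone with propoxylated isosorbide (3 libraries), with films 16 mm in diameter and sterilized by ethylene oxide gas. All libraries held primary cells in the same serum-containing growth medium, with no drug or differentiation factor named, taken from the bone marrow of a young male Sprague-Dawley rat, so the libraries may share a donor. The study describes repeated experiments, and neither its methods nor the labels say whether libraries of 1 film were separate cultures, so p-values measure the spread between these libraries, which may be technical.

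Proteins of the Bcl2 family decide whether the outer membrane of the mitochondrion is opened, the step that releases cytochrome c and starts the caspase cascade of intrinsic apoptosis. Bax and Bak1 form the pore. Bcl2, Bcl-xL (encoded by Bcl2l1) and Mcl1 hold the pore-forming proteins and their activators in check, and BH3-only proteins relieve that check or activate Bax and Bak1 directly. Most BH3-only genes are controlled by transcription: Bbc3 (Puma) and Pmaip1 (Noxa) are induced in stressed cells, Noxa binds mainly Mcl1, and Bim (Bcl2l11) has long been studied in cells that lose their attachment to matrix. Bid and Bad are controlled largely after translation, Bid by caspase cleavage and Bad by phosphorylation.

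Levels are given in FPKM, which divides a gene's fragments by its transcript length and the library total, so that different genes are compared per length. The total over all genes was 539390 on TCP, 542920 to 597950 on PCL and 590630 to 660120 on ISB-P. Such totals do not give depth, and how many reads stand behind a value is unknown. All 7 mesenchymal markers (Thy1, Nt5e, Eng, Cd44, Itgb1, Pdgfrb and Col1a1) were above 1 FPKM in every library, and all 4 endothelial markers (Pecam1, Cdh5, Kdr and Tek) were at most 1. Of 6 blood cell markers, Cd14, Cd68 and Csf1r were above 1 FPKM in every library, Ptprc was between 0.433 and 1.48, and Cd34 and Cd3e were listed at 0. Summed over the 6, they came to 54.1 FPKM in the TCP library, against 21.8 to 24.9 in PCL and 17.2 to 20.4 in ISB-P libraries. In bulk RNA, fewer cells of a type and less RNA per cell cannot be told apart.

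Bax and Mcl1 were the most abundant members, with means over the 6 film libraries of 99.5 and 91.3 FPKM, and their ranges overlapped (79.4 to 128 and 59.95 to 134). Bak1 followed at 50.3 FPKM, below Mcl1 in all 6 film libraries. Bad (28.6), Pmaip1 (21.9) and Bid (20.4) came next with overlapping ranges, then Bcl2l1 (12.7), Bcl2l11 (10.5) and Bbc3 (7.26), each overlapping its neighbour. Bcl2, the gene that gave the family its name, was lowest at 0.814 FPKM, under every library of every other member. Summed over the 10 members, the level was 321 ± 16.4 FPKM on PCL and 366 ± 11.0 on ISB-P (SD, n = 3 each), with 356 for TCP. These sums were not rescaled, and the totals over all genes also ran higher on ISB-P (590630 to 660120, against 542920 to 597950 on PCL).

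**Figure D1:**
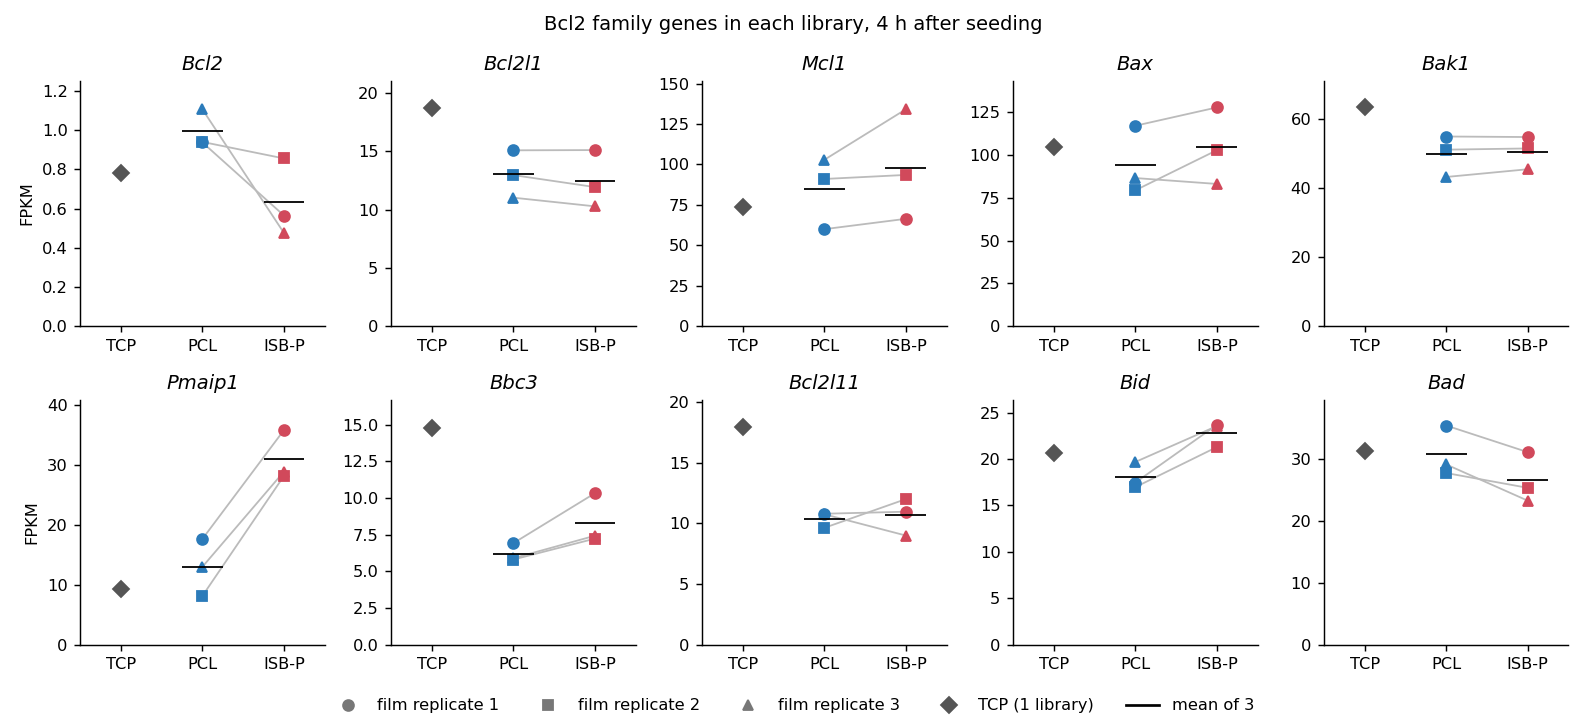
Level of each member in FPKM (vertical axis, linear, from 0) in the TCP library (diamond), the 3 PCL libraries (blue) and the 3 ISB-P libraries (red), with black bars for film means and grey lines joining libraries of the same replicate number. Pmaip1 was at 28.2 FPKM or more in every ISB-P library and at 17.6 or less in every PCL library, whereas Bak1 and Bcl2l1 ran side by side on both films.

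Pmaip1, the gene for Noxa, differed most between the films. It was at 17.6, 8.13 and 13.0 FPKM in PCL replicates 1, 2 and 3, at 35.8, 28.2 and 28.9 in ISB-P replicates 1, 2 and 3, and at 9.22 on TCP. Every ISB-P library lay above every PCL library, and the TCP value fell inside the PCL range. The means were 12.9 ± 4.76 and 30.9 ± 4.22 FPKM (SD, n = 3 each), a ratio of 2.40, and within replicate numbers the ratios were 2.03, 3.46 and 2.22. On the log2(FPKM + 1) scale the difference was 1.25 (SE 0.27, 95% interval 0.62 to 1.88), with an adjusted p = 0.0884 in limma, which did not pass 0.05. The exact two-sided permutation test over the 6 libraries gave p = 0.1, the smallest that 3 against 3 libraries allow. With the replicate number as a block, a fit in which each ISB-P library is set against the PCL library of its own number, the adjusted p was 2.94e-04 (interval 0.96 to 1.54).

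The promoter of Pmaip1 is printed because this member carries the difference between the films, and that of Mcl1, the main binding partner of Noxa, because among the members with a window it was the only other to hold the same 5 letters. Both are the 250 bases before the gene's start in RefSeq's GRCr8 assembly, chr18:62255720-62255969 on the plus strand for Pmaip1 and chr2:185907918-185908167 on the plus strand for Mcl1. The submitters' notes name rn5 as their build, and these coordinates do not apply to it. Capitals mark CGTCA, the core of a cyclic AMP response element, which ATF and CREB factors are known to bind.
Pmaip1: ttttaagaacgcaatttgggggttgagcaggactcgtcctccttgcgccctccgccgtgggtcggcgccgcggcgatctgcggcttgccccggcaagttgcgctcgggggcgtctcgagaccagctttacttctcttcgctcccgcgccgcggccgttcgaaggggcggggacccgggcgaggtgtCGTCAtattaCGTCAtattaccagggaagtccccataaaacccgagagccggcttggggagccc
Mcl1: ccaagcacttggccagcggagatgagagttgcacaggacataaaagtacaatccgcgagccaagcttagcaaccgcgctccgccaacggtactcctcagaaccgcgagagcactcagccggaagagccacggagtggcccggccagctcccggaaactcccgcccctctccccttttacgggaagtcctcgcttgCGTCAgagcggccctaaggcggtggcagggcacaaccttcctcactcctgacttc

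In the Pmaip1 window CGTCA began 64 and 54 bases before the start, and TTACGTCA, a variant of the whole element, began at 57 bases and overlapped the nearer copy. In the Mcl1 window it began 55 bases before the start. Searched on both strands, CGTCA was present in 18.2% of 33469 promoter windows of this length, with 2 or more copies in 3.98%, and TTACGTCA in 0.750%. The table held windows for 8 of the 10 members (11 windows), and not for Bbc3 and Bax. TGACGTCA (1.59% of all windows), TGATGCAA (0.693%) and TTCNNGAA (7.48%) were in none of the 11. These motifs were chosen after the Pmaip1 window had been read, and a match is a stretch of letters, not a bound site.

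The other BH3-only genes moved less. Bbc3, which encodes Puma, was at 6.92, 5.80 and 5.89 FPKM in PCL replicates 1 to 3, at 10.3, 7.23 and 7.42 in ISB-P replicates 1 to 3, and at 14.8 on TCP. Every ISB-P library was above every PCL library and the TCP library was above all of them. The log2 difference between films was 0.36 (SE 0.16), with adjusted p = 0.462 without and 0.0203 with the replicate block in limma. Bid, which links death receptors to the mitochondrion, was at 17.5, 17.0 and 19.7 FPKM on PCL, at 23.7, 21.3 and 23.6 on ISB-P and at 20.7 on TCP. The films did not overlap here either, and the log2 difference was 0.33 (SE 0.12), with adjusted p = 0.348 without and 0.0171 with the block.

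Bad, which releases Bax and Bak1 by occupying Bcl-xL, was at 35.4, 27.7 and 29.1 FPKM on PCL and at 31.1, 25.3 and 23.3 on ISB-P, with 31.2 on TCP. The films overlapped, although within each replicate number ISB-P was the lower library. The log2 difference was -0.21 (SE 0.16), with adjusted p = 0.786 without and 0.0801 with the block. Bcl2l11, the gene for Bim, was at 10.8, 9.62 and 10.7 FPKM on PCL, at 11.0, 12.0 and 8.99 on ISB-P and at 17.9 on TCP. The films overlapped fully, and the log2 difference was 0.03 with a 95% interval from -0.31 to 0.36 (adjusted p = 0.973 in limma).

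Of the pro-survival genes, Mcl1 was at 59.95, 91.0 and 103 FPKM in PCL replicates 1 to 3 and at 66.4, 93.5 and 134 in ISB-P replicates 1 to 3, with 74.0 on TCP. Its films overlapped, and on each film replicate 1 was the lowest library and replicate 3 the highest. Within each replicate number ISB-P was the higher library (ratios 1.11, 1.03 and 1.30). The log2 difference was 0.19 with an interval from -0.53 to 0.91, and from 0.0030 to 0.372 with the block (adjusted p = 0.927 and 0.125 in limma). Bcl2l1 was at 15.1, 13.0 and 11.0 FPKM on PCL, at 15.1, 11.9 and 10.3 on ISB-P and at 18.7 on TCP, so that the films overlapped and TCP was highest. Its log2 difference was -0.07 with an interval from -0.50 to 0.37 (adjusted p = 0.954, and 0.561 with the block). Mcl1 and Bcl2l1 each make a longer protective and a shorter death-promoting protein by alternative splicing, and gene-level values do not separate them.

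Bcl2 did not pass the filter of at least 1 FPKM in 3 film libraries. It was at 0.938, 0.941 and 1.11 FPKM on PCL, at 0.565, 0.856 and 0.475 on ISB-P and at 0.784 on TCP. Every ISB-P library was below every PCL library, with means of 0.632 ± 0.199 and 0.995 ± 0.0966 FPKM (SD, n = 3 each). In a fit without the filter, over 13460 genes, the log2 difference was -0.30 (adjusted p = 0.278, and 0.108 with the block), and the exact permutation test gave p = 0.1, its smallest value.

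The pore-forming genes differed little between films. Bax was at 117, 79.4 and 86.6 FPKM on PCL, at 128, 103 and 83.2 on ISB-P and at 105 on TCP, and the films overlapped. Its log2 difference was 0.15 with an interval from -0.37 to 0.66 (adjusted p = 0.916, and 0.256 with the block). Bak1 was at 55.0, 51.2 and 43.3 FPKM on PCL and at 54.9, 51.6 and 45.5 on ISB-P, library for library nearly the same, with 63.7 on TCP. Its log2 difference was 0.03 with an interval from -0.32 to 0.37, and from -0.13 to 0.18 with the block (adjusted p = 0.974 and 0.810 in limma).

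**Figure D2:**
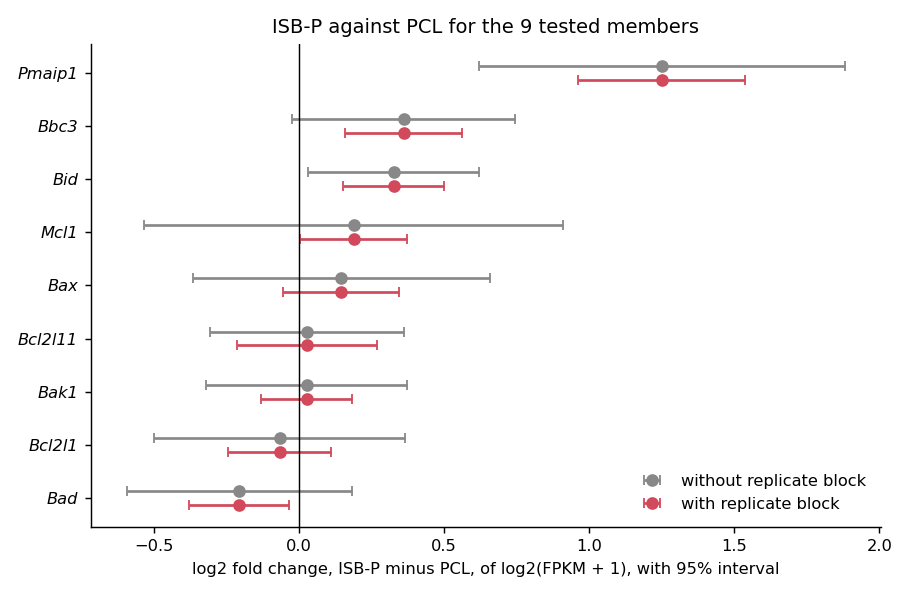
Log2 difference of FPKM + 1 between ISB-P and PCL (horizontal axis, ISB-P minus PCL) for the 9 tested members, with 95% intervals of the limma fit without (grey) and with (red) the replicate block. The Pmaip1 interval ran from 0.62 to 1.88 without and from 0.96 to 1.54 with the block, and the intervals of Bcl2l1, Bak1, Bax and Bcl2l11 held 0 in both fits.

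Counted over the members, 0 of 9 passed an adjusted p of 0.05 in limma without the block, against 1.72% of the 9467 tested genes, and Pmaip1 and Bid (2 of 9) had an unadjusted p under 0.05, against 12.1% of all tested genes. With the block, Pmaip1, Bbc3 and Bid passed as higher on ISB-P, 3 of 9 against 13% of all tested genes, and 0 passed as lower, against 11.4%. The same 3 members were those with every ISB-P library above every PCL library (8.17% of all tested genes), and 0 of the 9 lay wholly below (9.54%). The fold, p and level thresholds of the study were applied here as a fold over 2, an unadjusted p under 0.1 in limma and a mean of 16 FPKM or more on either film, a reading of its wording. Pmaip1 was the only member past them, as higher on ISB-P, against 0.613% of all tested genes in that direction. The median log2 difference of the 9 was 0.15, against 0.02 over all tested genes, and 7 of the 9 were positive, against 5005 of 9467. Bak1 and Bcl2l11, among the 7, were negative after upper quartile scaling and with a common total. The median over all tested genes was then negative too (-0.06 and -0.09).

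The scale of the libraries bears on these blocked calls. Over all tested genes 1228 were higher and 1079 lower with the block (53.2% higher), and this split was 822 and 1558 after upper quartile scaling (34.5%), 1083 and 1209 after quantile normalization (47.3%) and 714 and 2113 after scaling to a common total (25.3%). Without the block 104 were higher and 59 lower (63.8%), against 70 and 70 with a common total (50%). Pmaip1 passed as higher in the blocked fit under each of these scalings. Bbc3 and Bid passed under all but the common total, where their adjusted p were 0.0549 and 0.0618, and Bbc3 also missed 0.05 without the filter on low values (0.0671). Bad passed as lower under all 3 scalings (adjusted p = 0.0354, 0.0365 and 0.0177 in limma) but not with FPKM as deposited. Without replicate number 1 of both films the blocked fit left Pmaip1 as the only member called, since Bbc3 and Bid then had adjusted p = 0.134 and 0.145. Without number 2 Bid was lost at 0.0502, and without number 3 Bax was added (log2 difference 0.25, adjusted p = 1.51e-04). In number 3, which was left out there, the Bax ratio of ISB-P to PCL was 0.960, in the other direction. Blocked fits with a number left out keep a single residual degree of freedom. Their spread is largely borrowed from other genes, so their p-values are no firm ground for a call.

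How much of a gene's variation went with film and how much with replicate number differed between the members. In Pmaip1 and Bid, film accounted for 79.5% and 81.2% of the sum of squares over the 6 film libraries. Bbc3 was divided, with 54.6% for film and 40.3% for replicate number. In Bak1, Bcl2l1, Mcl1 and Bax the replicate number accounted for 97.3%, 95.5%, 90.6% and 80.2%, and in Bad for 66.2%. The medians over all tested genes were 14.0% for film, 72.8% for replicate number and 5.72% for the rest. Bcl2l11 was the exception among the members, with 75.6% in neither term. These shares describe 6 libraries and carry no test.

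**Figure D3:**
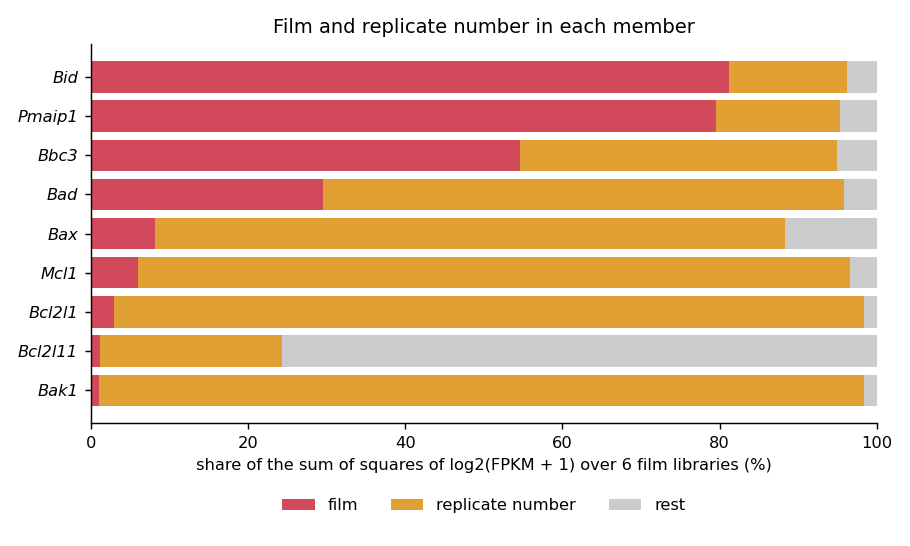
Share of each tested member's sum of squares of log2(FPKM + 1) over the 6 film libraries (horizontal axis, percent) that went with film (red), replicate number (orange) and neither (grey). Film took 81.2% in Bid and 79.5% in Pmaip1, and replicate number took 97.3% in Bak1.

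The balance between the classes also moved with replicate number. Bcl2, Bcl2l1 and Mcl1 together made up 22.6%, 34.5% and 35.6% of the summed level in PCL replicates 1 to 3, 21.8%, 30.0% and 39.6% in ISB-P replicates 1 to 3, and 26.3% on TCP. The film means were 30.9% ± 7.22 and 30.5% ± 8.93 (SD, n = 3 each), closer to each other than the libraries of either film. Most of this share was Mcl1: without the most abundant member of each class it was 12.6% on PCL and 9.52% on ISB-P. The ratio of Mcl1 to Pmaip1 was 3.40, 11.2 and 7.92 in the PCL libraries, 1.85, 3.32 and 4.65 in the ISB-P libraries and 8.02 on TCP. It was lower on ISB-P within every replicate number, and the ranges of the films overlapped.

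**Figure D4:**
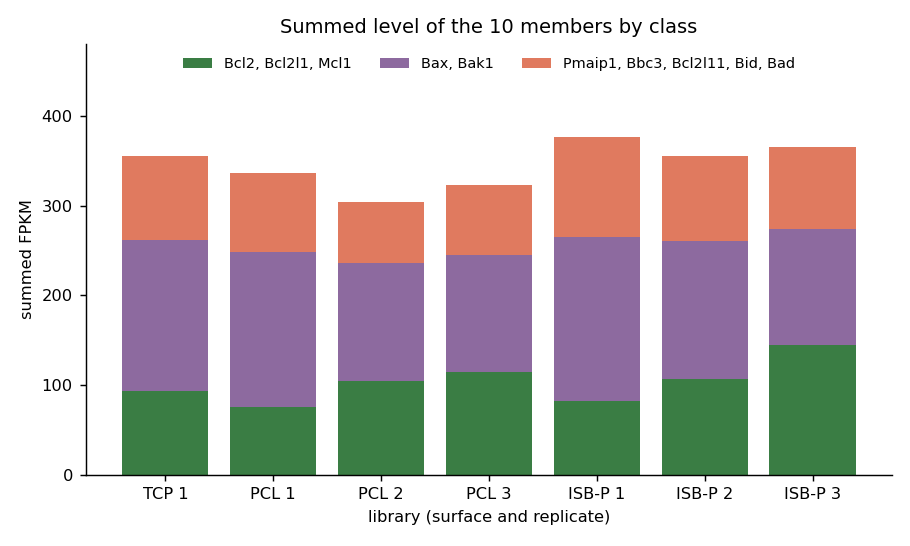
Summed FPKM of the pro-survival members (green), the pore-forming members (purple) and the BH3-only members (orange) in each of the 7 libraries (bars start at 0). The pro-survival part was smallest in replicate 1 of both films (22.6% on PCL and 21.8% on ISB-P of the whole bar) and largest in replicate 3 of both (35.6% and 39.6%).

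Comparisons with TCP have no replicate check. The TCP library was above all 6 film libraries for Bcl2l1, Bak1, Bbc3 and Bcl2l11, under every scaling tried. It was within their range for the other 6 members. How many of all tested genes had TCP above every film library was not counted, so this is not shown to be particular to the family. Relative to TCP on the FPKM + 1 scale, Bbc3 was at 0.592 on ISB-P and 0.457 on PCL, Bcl2l11 at 0.615 and 0.602, Bcl2l1 at 0.682 and 0.712, and Bak1 at 0.799 and 0.786. Pmaip1 was at 3.12 on ISB-P and 1.36 on PCL, the only member whose ISB-P mean was more than 1.5 times the TCP value. The summed blood cell markers were also highest on TCP, as given above, and their part in these levels was not tested.

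Further family genes, genes related to them and the pathway were taken from lists chosen with earlier results of these data known. Of 18 other genes of the family or related to it, a list that also holds Becn1, Mtch2 and Spns1, 13 were tested. Their median log2 difference was -0.06, and 1 was lower without the block. That gene was Bmf, a BH3-only gene whose protein is tied to the cytoskeleton in attached cells, whose mean was 1.98 ± 0.245 FPKM on PCL and 0.690 ± 0.242 on ISB-P (SD, n = 3 each), against 2.92 for TCP. Its log2 difference was -0.83 (SE 0.14, adjusted p = 0.0411 in limma, 9.33e-04 with the block), opposite in sign to Pmaip1. It passed the filter only through the PCL libraries (2.26, 1.79 and 1.90 FPKM), the film where it was higher, with 0.938, 0.677 and 0.455 on ISB-P. Its entry into the test was therefore not independent of the difference, and the call is no support for it. Every ISB-P library was below every PCL library, at a level close to the filter, and the call without the block was lost when any library other than ISB-P replicate 1 was left out (adjusted p from 0.0707 to 0.219) and under upper quartile scaling, quantile normalization, a pseudocount of 0.1 and a fit with no trend. With the block the list had 1 gene higher and 2 lower of 13. Over all tested genes 1.72% were called without the block, and 13% were higher and 11.4% lower with it.

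The lists of the apoptosome and caspases, of inhibitors of apoptosis and of death receptors are read against the same shares of all tested genes (1.72% called without the block, 12.1% with an unadjusted p under 0.05, 13% higher and 11.4% lower with the block). Of 20 genes of the apoptosome, the caspases and the proteins that mitochondria release, all 20 were tested and 0 were called without the block (2 had an unadjusted p under 0.05), with 4 higher and 3 lower with it and a median of -0.01. Cycs, which encodes cytochrome c and had the largest difference of the list, was at 181 ± 81.3 FPKM on PCL and 285 ± 194 on ISB-P (SD, n = 3 each), with a log2 difference of 0.54 (adjusted p = 0.869, and 0.0145 with the block). Of 6 inhibitor of apoptosis genes 0 were called without the block (2 with an unadjusted p under 0.05) and 1 was higher and 1 lower with it, with a median of 0.06. Cflar, the inhibitor of caspase 8 activation, was at 14.6 ± 1.15 on PCL and 19.2 ± 2.99 on ISB-P (log2 difference 0.36, adjusted p = 0.398, and 0.0164 with the block). Of 14 tested death receptor genes 0 were called without the block (1 with an unadjusted p under 0.05) and 3 were higher and 1 lower with it, with a median of 0.14. Tnfrsf1b, a receptor of tumour necrosis factor, led that list at 7.29 ± 0.368 on PCL and 10.2 ± 0.980 on ISB-P (log2 difference 0.43, adjusted p = 0.183, and 0.00731 with the block).

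The next list held transcription factors known to act on BH3-only genes, and stress genes listed with them, such as Trib3, Chac1 and Ppp1r15a. Among its 22 tested genes, 2 were higher and 0 lower without the block (8 with an unadjusted p under 0.05), 8 were higher and 4 lower with it, and the median was 0.12. Over all 9467 tested genes these were 104 higher and 59 lower without the block, 12.1% with an unadjusted p under 0.05, and 13% higher and 11.4% lower with the block. The genes called higher on ISB-P than on PCL without the block, Ddit3 and Atf3, belong to the integrated stress response. Ddit3, which encodes CHOP, was at 14.9 ± 2.14 FPKM on PCL, 56.1 ± 11.9 on ISB-P and 27.8 on TCP (log2 difference between films 1.84, SE 0.19, adjusted p = 0.00805 in limma). Atf3 was at 7.39 ± 0.585 on PCL, 16.9 ± 1.76 on ISB-P and 14.6 on TCP (log2 difference between films 1.09, SE 0.13, adjusted p = 0.0159). Both kept their call in 9 of 9 fits with the block. Such fits reuse the same libraries, and with a replicate number left out the spread is largely borrowed from other genes. Without the block, Ddit3 was no longer called when PCL replicate 2 was left out (adjusted p = 0.0735), or number 2 or 3 of both films (0.438 and 0.0773). Atf3 was lost without ISB-P replicate 2 or any PCL library (0.0648 to 0.140) and without any number of both films (0.0830 to 0.848). Ppp1r15a, which restores translation after that response, was at 25.3 ± 4.79 and 51.9 ± 10.1 (log2 difference 1.00, adjusted p = 0.0667, and 4.95e-05 with the block), and Trib3 at 3.25 ± 1.37 and 7.97 ± 2.41 (1.09, adjusted p = 0.147, and 1.48e-04 with the block). Chac1, another target of the same response, went the other way, from 5.68 ± 0.477 to 3.01 ± 0.815 FPKM (log2 difference -0.76, adjusted p = 0.112, and 0.00153 with the block). The TCP library lay above every PCL and below every ISB-P library for Ddit3, Atf3 and Ppp1r15a (38.6 FPKM). For Trib3 (1.11) and Chac1 (1.78) it was below all film libraries.

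Kinases, ubiquitin ligases and binding partners of Bcl2 family proteins had 5 of 28 tested genes higher and 0 lower without the block (8 with an unadjusted p under 0.05), and 10 higher and 1 lower with it, with a median of 0.16. The same shares of all tested genes apply (104 higher and 59 lower of 9467 without the block, 12.1% unadjusted, 13% higher and 11.4% lower with it). All 5 are chaperones or a cochaperone. The paper had already named Hspa1a, Hspa8, Hspb1 and Cryab as higher on ISB-P. The list was chosen with earlier results of these data known, so its count is no independent support. Bag3, which binds both Hsp70 and Bcl2, was at 104 ± 14.0 FPKM on PCL, 305 ± 71.5 on ISB-P and 156 on TCP (log2 difference between films 1.53, adjusted p = 0.0213 in limma). Hspa8 was at 1335 ± 144 on PCL, 3539 ± 553 on ISB-P and 1021 on TCP (1.40, adjusted p = 0.00831). Hspb1 and Cryab, small heat shock proteins, had log2 differences of 1.68 and 0.96 (adjusted p = 0.0267 and 0.0450). Hspa1a was at 11.4 ± 1.73 FPKM on PCL, 621 ± 346 on ISB-P and 91.1 on TCP (5.47, adjusted p = 0.00361). Since the near-identical Hspa1b lies beside it, how reads were shared between them is uncertain. The TCP library lay above every PCL and below every ISB-P library for Bag3, Hspa1a, Hspb1 (349 FPKM) and Cryab (12.8). For Hspa8 it was below all film libraries. All 5 kept their call in 9 of 9 fits with the block. Those fits reuse the same libraries, and with a replicate number left out the spread is largely borrowed from other genes. Without the block and without PCL replicate 2, the adjusted p was 0.0841 for Hspa8, 0.158 for Bag3, 0.170 for Hspb1 and 0.182 for Cryab. Hspa1a was still called there. Without number 2 of both films all 5 calls were lost (0.438 for Hspa1a). Leaving out ISB-P replicate 2 lost the same 4 calls (0.0727 to 0.245), and leaving out PCL replicate 1 or 3 lost Bag3, Hspb1 and Cryab. Hspb1 and Cryab were also lost without ISB-P replicate 1 and under all 3 scalings, Cryab with no filter (0.0556) and with a filter at a mean of 5 FPKM (0.0633), and Bag3 under upper quartile scaling and quantile normalization. Pim1, a kinase that phosphorylates Bad, was at 3.52 ± 0.273 and 7.07 ± 2.40 (log2 difference 0.80, adjusted p = 0.150, and 0.00241 with the block).

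**Figure D5:**
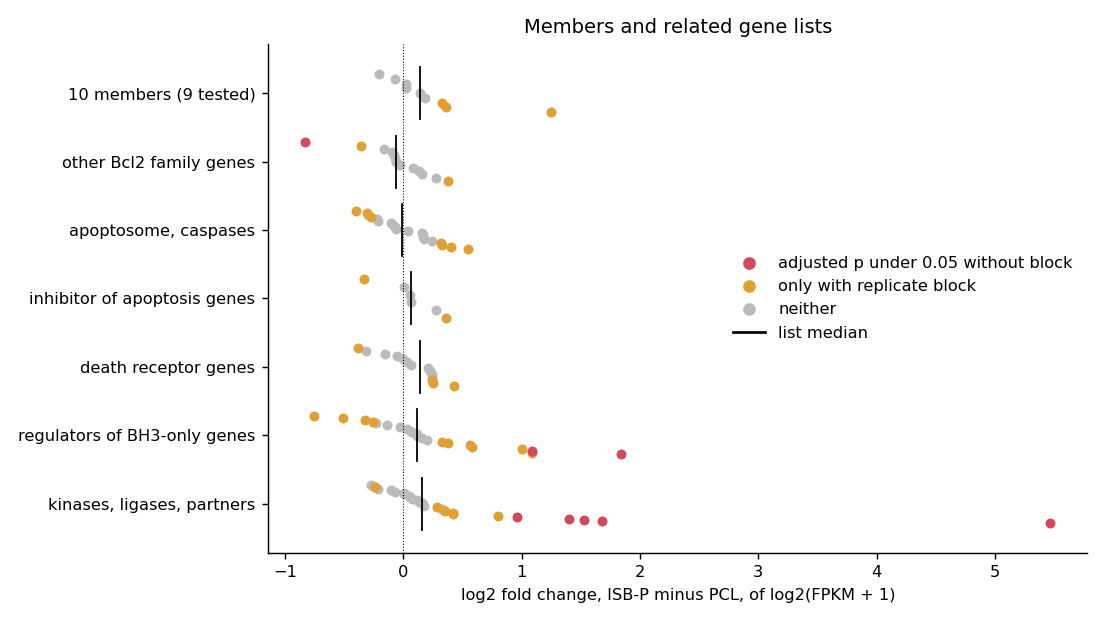
Log2 difference of FPKM + 1 between ISB-P and PCL (horizontal axis) for each tested gene of the members and the 6 lists (rows), with red points for genes passing an adjusted p of 0.05 without the block, orange for those passing only with it, and a black line at each list's median. The list medians lay between -0.06 and 0.16, and the red points outside the last 2 lists were limited to Bmf at -0.83, which passed the filter only through PCL libraries.

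The tested genes whose profile over all 7 libraries was closest to that of Pmaip1 (Euclidean distance of centred log2(FPKM + 1)) were Inhba (0.648), Trim16 (0.754), Maff (0.799), Hsp90ab1 (0.803) and Agpat9 (0.804). Inhba, a subunit of activin, was at 228, 161 and 184 FPKM on PCL, at 399.6, 298 and 327 on ISB-P and at 131 on TCP. It had the order of Pmaip1 within each film, with replicate 1 highest and replicate 2 lowest.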

How the data were processed

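RNA-seq of 7 libraries was used: 1 of TCP, 3 of PCL and 3 of ISB-P. The authors made strand-specific polyadenylated libraries and deposited 1 value per gene symbol and library, read here as FPKM because the values are not whole, their sums differ between libraries, and the submitters' processing notes name Cuffdiff 2.2.1. The notes also name bcl2fastq 2.20.0.422, cutadapt 1.18, TopHat2 2.0.13 and rn5, and the methods name ExDEGA. Scaling and read depth are not given in the sources used here.

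Genes reaching 1 FPKM in 3 or more film libraries (9467 of 17147) were fitted on log2(FPKM + 1) with limma 3.58.1 in R 4.3.3 (lmFit, eBayes with trend, two-sided, Benjamini-Hochberg over all tested genes), with FPKM as deposited. The added 1 shrinks fold changes of low genes. The fit was tested on simulated data with a planted change larger than that of any member, which does not bear on smaller differences. Replicate numbers pair the libraries by the rule used here: deviations from the film mean correlated across genes at r = 0.887, 0.431 and 0.867 for the same number, although genes are not independent replicates and no source says what a number stands for. Numbers were taken from the sample titles. Those in the PCL file names differ from the titles, and every blocked value rests on the titles.

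The members and lists were chosen with earlier results of these data known. Named genes are all members, list genes with an adjusted p under 0.05 without the block or, with it, over 1.5-fold, otherwise the list gene with the largest difference, and the 5 profiles nearest to the member that differed most. Any other gene is said to be named after its values were seen. Alternatives were 3 other scalings, a pseudocount of 0.1, 2 other filters, the replicate block, TCP in the fit, no trend and left-out libraries. The replicate block combined with other settings was added after seeing the data. Promoters came from RefSeq (GRCr8). Figures were drawn with matplotlib 3.10.9. Results for 1 gene list, 1 marker and 1 promoter motif are not reported here.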

Additional observations from a re-analysis of the deposited data

How the results depend on the processing

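No result turned round under any alternative while called. With the replicate block, 3 members were higher and 0 lower, 1228 of all genes were higher and 1079 lower, and 27 list genes were higher and 12 lower, against 0 and 0, 104 and 59, and 7 and 1 without it. The block combined with other settings, added after seeing the data, gave 3 members higher and 1 lower, and 21 list genes higher and 17 lower, after upper quartile scaling. The same counts were 3 and 1, and 25 and 13, after quantile normalization, 1 and 1, and 19 and 19, with a common total, 3 and 0, and 27 and 12, with a pseudocount of 0.1, and 2 and 0, and 17 and 5, without the filter. Without the block, all genes were 69 higher and 39 lower after upper quartile scaling and 57 and 17 at a mean of at least 5 FPKM, and 38 were lower without a trend. List genes called higher were then 4 after upper quartile scaling and after quantile normalization, and those called lower were 0 under upper quartile scaling, quantile normalization, a pseudocount of 0.1, a filter at a mean of 5 FPKM and no trend, and 2 without the filter. With libraries left out, with and without the block, counts ran from 0 to 4 for members higher, 0 to 1758 and 0 to 1379 for all genes higher and lower, and 0 to 33 and 0 to 14 for list genes. Pairs of numbers with 1 left out keep a single residual degree of freedom under the block, and the spread is borrowed from other genes. The Pmaip1 difference ran from 0.98 to 1.49 over 26 alternatives, and it was called in 9 of 9 fits with the block and 0 of 17 without it (adjusted p from 0.0817 to 0.9995 in limma). Bcl2l11 and Bak1, not called, changed sign in 8 of 26. Members with TCP below all films numbered 0, or 1 without PCL replicate 2 (range 0 to 1). The pro-survival share was 25.2% on TCP with summed log2 values, and without the most abundant member of each class 12.6% on PCL, 9.52% on ISB-P and 13.4% on TCP. The causes were not tested. Read depth is unknown, so the counting error of low genes such as Bcl2 and Bmf could not be estimated, and TCP has 1 library.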
